A study of Mus musculus with 11 samples.

Results

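Chromatin accessibility of mouse CD8+ T cells after 9 days, including an activation and a second culture, was compared with that of naive CD8+ T cells by ATAC-seq, which reads out open DNA through the sites where a transposase inserts sequencing adapters. Per the labels, all cells came from spleen and carried a Tcf7-YFP reporter, and Tcf7 encodes the transcription factor TCF-1. The naive group was 1 library of splenocytes sorted as CD8+CD44-CD62L+Tcf7-YFP+, which were not cultured. The day 9 group was 8 libraries, from cells that passed a YFP sort at day 3, a further culture and another YFP sort at day 9. Of these, 2 were YFP-high at both sorts (high_to_high), 3 were low and then high (low_to_high) and 3 were low at both sorts (low_to_low). These 9 libraries are all of the study's naive and day 9 libraries, out of 11 in the series. An antigen-experienced library (CD8+CD44+CD62L+Tcf7-YFP+ splenocytes) and an effector library (activated ex vivo for 3 days) are given only as side values. The labels name no mouse strain, age, stimulus or culture medium. Nor do they state the origin of the replicates, so the spread behind each p-value may be technical. With 1 naive library, its preparation and the naive state cannot be told apart, and no exact permutation test of 1 against 8 libraries can give a two-sided p below 0.111.

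Naive CD8 T cells are resting cells that recirculate through lymph nodes. After activation they divide, acquire cytokines, granzymes and receptors for inflamed tissue, and lower their homing receptors. Regulatory DNA in use is usually open, and many of the open sites that differ between T cell states are enhancers away from promoters. TCF-1 is high in naive and memory T cells and falls in terminal effector cells.

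Merging overlapping peaks (1 bp or more) of the 11 libraries gave 111041 regions. A region's value in a library was the normalized tag count of its strongest peak, the number of tags the peak would hold had the library 10000000 tags. A total of 30804 regions had a peak in all 9 libraries and were tested with limma on log2(value + 1), with each library centred on its median. Differences are day 9 minus naive on that centred log2 scale, with their standard error (SE). A region counted as called at a Benjamini-Hochberg adjusted p under 0.05. Depth was 37.5 M tags in naive and 20.8 M to 60.0 M at day 9, and 15.01% of naive tags lay in peaks against 9.01 to 12.5% at day 9. The naive values were also spread more widely over the tested regions, with an SD of 1.28 on the log2 scale against 0.93 to 1.00 in the day 9 libraries.

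Day 9 cells and naive cells differed at many open regions. The naive value lay below all 8 day 9 values in 8447 tested regions (27.4%) and above all 8 in 13400 (43.5%). The limma fit called 6284 regions more open at day 9 (20.4%) and 9471 less open (30.7%). Day 9 was at least 2-fold more open in 2899 called regions (9.41%) and at least 2-fold less open in 770 (2.5%). The split between the directions depended on the scaling. More open regions were 39.9% of calls with median centring and 56.6% with cyclic loess, which removes differences that follow the level (6611 more open and 5076 less open). After cyclic loess the 2-fold classes held 2847 and 783 regions, of which 2603 and 660 were the same regions as with median centring. On the deposited scale without centring, all differences shifted by -0.26, the calls were 3758 more open and 12481 less open, and the 2-fold classes held 1809 and 2412. More open regions were then 23.1% of calls and 42.9% of 2-fold calls, against 79.0% of 2-fold calls with median centring. The median difference of all tested regions was -0.15 with median centring, -0.02 after cyclic loess and -0.41 without centring, and single values are to be read against it.

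The 2-fold more open regions had a median value of 5.86 in naive and 16.9 at day 9. The 2-fold less open regions had a median of 40.7 in naive and 12.7 at day 9. In all regions of both classes the naive value lay outside the range of the 8 day 9 libraries. Changes of at least 4-fold were called in 429 more open and 28 less open regions. These numbers do not compare gain with loss, because a region enters the test only with a peak in each of 8 day 9 libraries but in a single naive library. A further 18408 naive regions (32.1%) had a peak in 1 to 7 of the 8 and were not tested. Their median naive value was 8.79, against 24.1 for the tested regions.

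**Figure D1:**
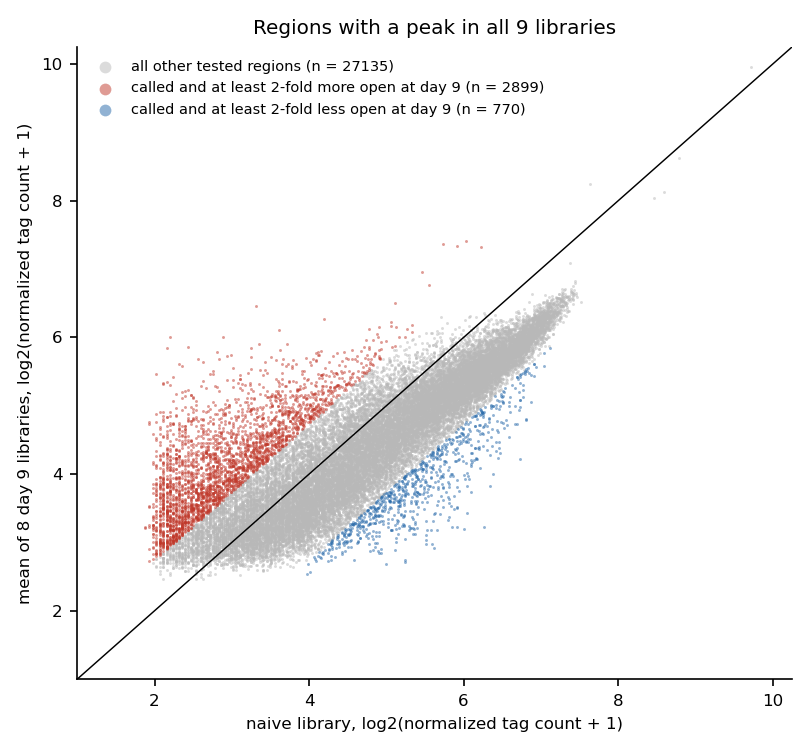
Mean log2(normalized tag count + 1) of the 8 day 9 libraries (y axis) against the value of the naive library (x axis) for the 30804 regions with a peak in all 9 libraries, before centring. Red points are the 2899 regions called at least 2-fold more open at day 9, blue points the 770 called at least 2-fold less open, and the line marks equal values.

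Promoter sequences are shown for 4 genes whose promoter, taken as 250 bases before to 50 after the start, overlapped a changed region: Xcl1 and Cd160, called in opposite directions, and Lilr4b and Havcr2, with a promoter peak in all 8 day 9 libraries and none in naive. Each is the 250 bases before the start, 5′ to 3′ on the gene's strand, from RefSeq (build GRCm38.p6), and capitals mark matches to the motifs searched below. They were chosen after their values were seen.
Xcl1: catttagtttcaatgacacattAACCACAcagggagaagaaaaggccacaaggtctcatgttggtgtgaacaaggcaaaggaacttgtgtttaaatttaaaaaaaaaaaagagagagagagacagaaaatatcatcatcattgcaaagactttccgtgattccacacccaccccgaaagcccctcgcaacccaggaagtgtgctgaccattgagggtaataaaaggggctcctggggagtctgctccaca
Lilr4b: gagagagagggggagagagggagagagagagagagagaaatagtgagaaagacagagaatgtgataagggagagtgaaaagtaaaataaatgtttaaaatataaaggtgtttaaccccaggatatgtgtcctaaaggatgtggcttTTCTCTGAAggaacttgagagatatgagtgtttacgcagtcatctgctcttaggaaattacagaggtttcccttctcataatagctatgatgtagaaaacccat
Havcr2: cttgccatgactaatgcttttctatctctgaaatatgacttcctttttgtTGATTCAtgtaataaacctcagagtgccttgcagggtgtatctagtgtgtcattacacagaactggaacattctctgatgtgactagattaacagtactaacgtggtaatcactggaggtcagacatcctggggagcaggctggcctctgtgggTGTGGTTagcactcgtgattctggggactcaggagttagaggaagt
Cd160: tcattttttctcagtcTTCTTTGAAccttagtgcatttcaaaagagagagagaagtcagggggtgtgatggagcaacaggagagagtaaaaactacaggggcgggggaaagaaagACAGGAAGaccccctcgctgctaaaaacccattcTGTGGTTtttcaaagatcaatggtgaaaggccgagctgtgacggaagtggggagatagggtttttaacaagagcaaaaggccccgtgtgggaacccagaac
Xcl1 (chr1:164935523-164935772, minus strand) encodes lymphotactin, a chemokine that draws cross-presenting dendritic cells. Its promoter region had a value of 3.86 in naive and 19.8, 28.2 and 41.9 at day 9 (lowest, median, highest of 8), a difference of 2.85 (SE 0.20, limma adjusted p = 6.81e-13). No day 9 library came near the naive value. The capitals mark a RUNX match on the reverse strand.

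Lilr4b (chr10:51480362-51480611, plus strand) belongs to a family of leukocyte immunoglobulin-like receptors. Its promoter peak ran from 40.6 through a median of 54.5 to 59.1 at day 9, and the nearest naive peak was 10143 bp away. Havcr2 (chr11:46454681-46454930, plus strand) encodes the inhibitory receptor TIM-3. Its promoter peak was weak at day 9, with 6.02, 7.36 and 11 as lowest, median and highest, and 26.2 in the effector library. In Lilr4b the capitals mark a STAT match, in Havcr2 an AP-1 and a RUNX match. Cd160 (chr3:96814522-96814771, minus strand) encodes a receptor of the immunoglobulin family on cytotoxic lymphocytes. Its region had 38.1 in naive and 11.2, 16.0 and 17.7 at day 9, a difference of -1.01 (SE 0.21, adjusted p = 0.000299), and -1.63 with each library's percent of tags in peaks as a covariate. Its capitals mark STAT, ETS and RUNX matches in that order. Another tested region inside Cd160 (chr3:96813159-96813500) went the other way. It had 14.1 in naive and 15.7, 16.7 and 21.3 at day 9, a difference of 0.54 (SE 0.19).

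The 12 regions with the largest gain (1 per gene, a protein-coding gene within 100 kb) were close to the weakest naive peak (2.67) in naive and strong at day 9. Their naive values were 3.06 to 6, and no day 9 value was under 30.0. The differences ran from 3.24 to 4.07 with SEs of 0.14 to 0.17. Regions are named by the nearest gene span, which does not show which gene they act on, and the annotation used here does not separate exons from introns.

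The region with the largest difference lay 10705 bp from Nek6, which encodes a kinase of mitosis (chr2:38472949-38473158). Its value was 3.60 in naive and 53.4, 63.7 and 73.5 at day 9, a difference of 4.07 (SE 0.15, adjusted p = 4.11e-19). A region inside Atxn1, the gene of ataxin-1 (chr13:45649259-45649537), went from 3.46 to 46.8, 54.6 and 65.5 (3.96, SE 0.14, adjusted p = 2.67e-19). In both, all 8 day 9 values lay above naive, as the choice of the regions required. Inside Myo16, an unconventional myosin gene (chr8:10480923-10481145), the values were 3.06 in naive and 35.6, 43.1 and 53.2 at day 9 (3.71, SE 0.15). Inside Lilrb4a, an inhibitory receptor gene beside its paralog Lilr4b (chr10:51490704-51490926), they were 4 in naive and 39.9, 49.1 and 56.5 at day 9 (3.56, SE 0.15). How reads matching both paralogs were placed is not given in the sources used here. Both neighbours thus had a region with high signal in all 8 day 9 libraries.

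The other 8 were C6 (a complement component), Arhgap26 (a GTPase-activating protein), Armc2, Ppp4r2 (a regulatory subunit of protein phosphatase 4), Pilrb1 (an activating paired immunoglobulin-like receptor), Suclg2 (a subunit of mitochondrial succinate-CoA ligase), Pls1 (an actin-bundling plastin) and Gnptab (which tags lysosomal enzymes). Gnptab had the smallest difference of the 12, with 6 in naive and 41.4, 57.0 and 60.9 at day 9 (3.24, SE 0.15). In the side libraries the 12 regions had values of 17.7 to 88.4 in antigen-experienced cells. In effector cells 11 had values of 6.39 to 53.7, and the Armc2 region had no peak.

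Of the 12 regions with the largest loss, 11 are described, and these kept a peak in every day 9 library. Their naive values were 36.8 to 105.1 and their day 9 values 4.25 to 30.6. The differences ran from -2.78 to -2.21 with SEs of 0.22 to 0.37, so the day 9 libraries scattered more there than over the 12 gains. With each library's percent of tags in peaks as a covariate, 4 of the 11 moved by over 1.5 times, to -5.04 at Fndc7, -4.34 at Gria3, -4.00 at Syde1 and -3.92 at Kif1b. The naive percent lies outside the day 9 range, so that fit extrapolates.

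A region inside Fndc7 (chr3:108865705-108866002) fell from 76.1 in naive to 5.61, 8.19 and 13.5 at day 9, a difference of -2.78 (SE 0.37, adjusted p = 4.67e-07). Inside Dtx1, which encodes Deltex, a ubiquitin ligase of the Notch pathway (chr5:120696889-120697294), the values were 63.4 in naive and 6.09, 7.66 and 11.7 at day 9 (-2.55, SE 0.22, adjusted p = 7.71e-11). In both, all 8 day 9 values lay below naive, as the choice of the regions required. Inside Kif1b, a kinesin gene (chr4:149282358-149282785), naive had 105.1 and day 9 had 11.4, 17.5 and 30.6 (-2.25, SE 0.33). Near Rgcc, a regulator of the cell cycle (chr14:79315897-79316233), naive had 36.8 and day 9 had 4.25, 5.50 and 8.49 (-2.26, SE 0.24). The others lay in or near Tdrp, Gria3 (a glutamate receptor subunit), Vwce, Adipoq (adiponectin), Cap2 (an actin regulator), G3bp2 (a stress granule protein) and Syde1 (a GTPase-activating protein). In antigen-experienced cells the 11 regions had values of 14.5 to 85.9. In effector cells 4 had a peak, with values of 3.10 to 11.9.

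**Figure D2:**
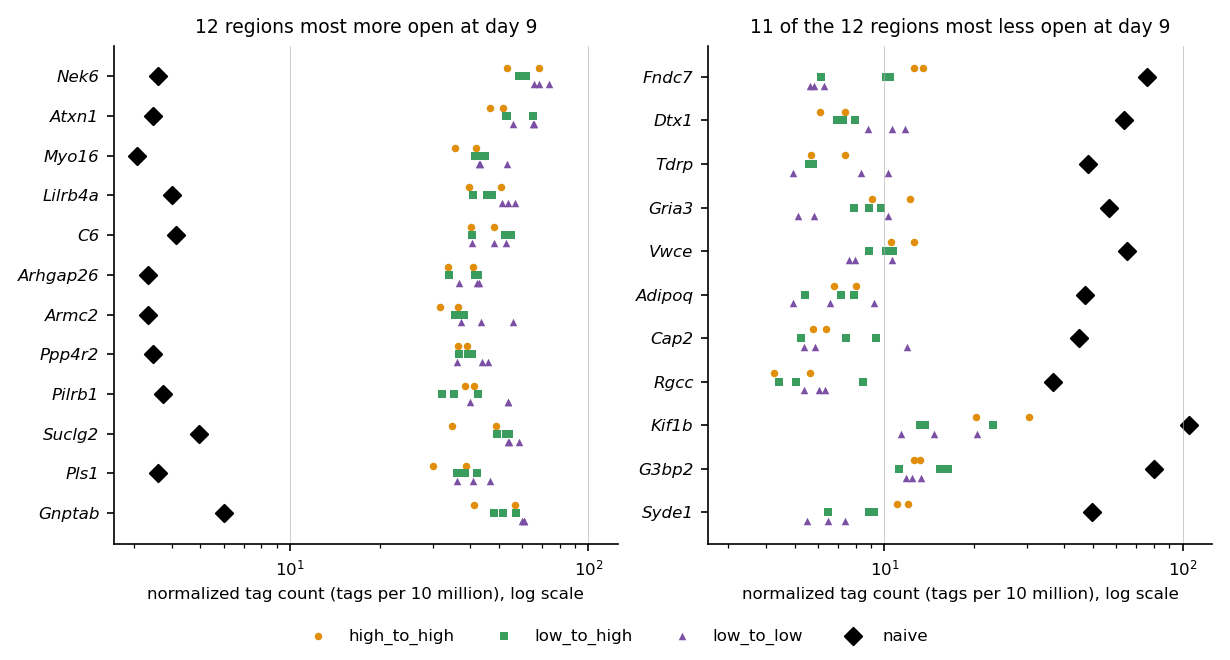
Normalized tag count (x axis, log scale) of the 12 regions with the largest gain (left) and 11 of the 12 with the largest loss (right) at day 9, by nearest gene. Black diamonds are the naive library and coloured points the 8 day 9 libraries by group. The naive values run from 3.06 to 6 on the left and from 36.8 to 105.1 on the right, and lying outside all 8 was part of how the regions were chosen.

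Most of the 2-fold changed regions lay away from promoters. Promoters of any RefSeq gene were counted, non-coding genes included. Of all tested regions 23.5% overlapped one, against 5.59% of the 2-fold more open (162 regions) and 8.44% of the 2-fold less open (65). Regions inside a gene span but off promoters made up 51.0% and 48.2% of the 2 classes, and 44.2% of all tested regions. Promoter overlap was counted first, so these shares do not show a surplus inside genes. The 7254 promoter regions had a median of 61.0 in naive and 38.9 at day 9, with a median difference of -0.40. After cyclic loess it was -0.09, and other regions had -0.04 and 0.02. Promoters were also the stronger regions. Promoters and other regions differed most in the second strongest of 5 bins of level. There they had -0.35 and -0.11 with median centring, and -0.13 and 0.09 after cyclic loess. In the strongest bin they had -0.48 and -0.35, and -0.07 and 0.02 after cyclic loess. The order turned in the weakest bin, with 0.21 and 0.14, and 0.04 and -0.02 after cyclic loess. It also turned in the next bin, with 0.05 and 0.01, and -9.5e-05 and -0.03 after cyclic loess. In the same bins, 12.2% of promoters and 10.7% of other regions in the weakest bin were 2-fold more open. In the strongest bin it was 0.229% and 3.41%.

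**Figure D3:**
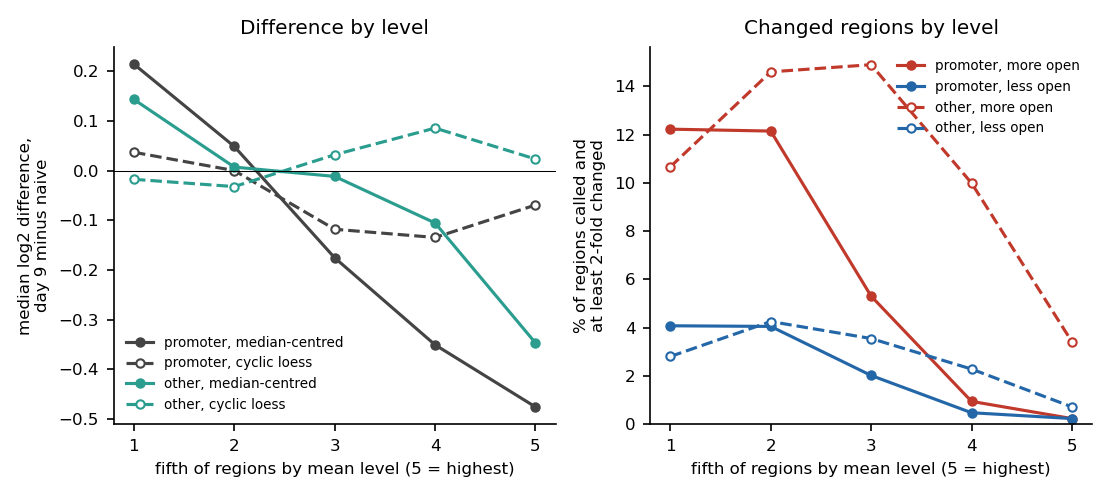
Left, median log2 difference between day 9 and naive for promoters and other regions in each of 5 bins of mean level, with median centring (solid) and after cyclic loess (dashed). Right, percent of regions called at least 2-fold changed in each bin; the strongest promoters hold the fewest, 0.229% in either direction.

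At coding-gene promoters the largest gains included Uchl1, a neuronal ubiquitin hydrolase gene, which had 4.80 in naive and 22.9, 28.7 and 33.8 at day 9 (2.56, SE 0.19). Trpc1, a cation channel gene, had 4.66 in naive and 19.4, 28.9 and 38.7 at day 9 (2.55, SE 0.19). Nrp2, which encodes the co-receptor neuropilin 2, had 3.60 and then 12.8, 17.2 and 28.5 (2.27, SE 0.21). Eml6 had 2.37 and Gng4 2.32. The largest losses included Zfp2, a zinc finger gene, with 59.6 in naive and 6.72, 10.9 and 14.2 at day 9 (-2.16, SE 0.26). Fhit, a diadenosine hydrolase gene, had 55.0 and then 8.88, 11.5 and 13.7 (-1.91, SE 0.21). Cnr2, the cannabinoid receptor gene of immune cells, had 68.2 and then 12, 17.7 and 25.1 (-1.68, SE 0.27). Mgmt, a DNA repair gene, had -1.62 and Bend5 -1.98. With the percent of tags in peaks as a covariate Eml6 had 1.56 and Cnr2 -2.54, and against high_to_high replicate 2 alone Mgmt had -1.07.

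Changed regions that lie next to each other mostly shared a direction. Of adjacent 2-fold changed regions at most 50 kb apart, 780 of 866 pairs (90.1%) shared a direction, and 285 of 294 (96.9%) at most 10 kb apart. Over all tested regions the shares were 61.4% and 64.5%. The 2-fold set is uneven, with 79.0% of it more open, so that 66.8% of pairs would share a direction if neighbours were independent, against 51.7% over all tested regions.

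Regions with a peak only in day 9 or only in naive form the other class. A peak in all 8 day 9 libraries and none in naive was seen in 3579 regions, 10.4% of the 34383 with a peak in all 8. A peak in naive and in none of the 8 was seen in 8186, 14.3% of the 57398 naive regions. A missing peak does not show a closed region, and most of these peaks were weak, with medians of 10.6 and 6.13. Some were shifted rather than absent. The strongest in each direction lay at Hbp1 and were 5 bp apart, with 67.3 to 102.6 at day 9 and 156 in naive. Without a peak of the other side within 500 bp, 3353 day 9 regions (9.75%) and 6407 naive regions (11.2%) remained. Of these, 452 and 763 had a value of at least 20.

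The peak caller also asked for 4-fold over the surrounding 10 kb, and the isolated naive regions of at least 20 sat close to that limit. Their median was 5.16-fold and 45.5% were under 5-fold, against 13.96-fold and 5.84% for all naive regions of that strength. The matching day 9 regions had a median of 9.35-fold, with 6.86% under 5-fold. Whether the limit made peaks drop out was not tested. Restricted to at least 8-fold over the surroundings, 269 isolated day 9 regions and 137 isolated naive regions with a value of at least 20 were left. These are the ones described next, a restriction chosen after the values were seen.

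The strongest of the 269 lay inside Aida (chr1:183299212-183299389), with 53.9, 73.1 and 88.5 at day 9. Regions inside Ankrd44 (53.5 to 75.3), Megf11 (48.5 to 65.9) and Riok1, an atypical kinase gene (43.6 to 65.9), came next. The Megf11 region stood 75146 bp from the nearest naive peak. Others lay at Slc26a3, Med4, Ttc39c, Smug1 (a uracil-DNA glycosylase gene) and Noxa1, beside the Lilr4b promoter shown above. Of the 269, 175 had a peak in antigen-experienced cells and 195 in effector cells. Of all 3353 isolated day 9 regions, 1356 and 1757 did. The shares over all regions with a peak in every day 9 library are not given here. Whether these counts are high or low for day 9 regions was therefore not tested.

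The strongest of the 137 naive regions lay inside Cd247, the gene of the T cell receptor zeta chain (chr1:165837647-165837819), with 71.0 in naive and the nearest day 9 peak 6638 bp away. Regions near Trp53inp1 (70.8) and Neto2 (70.6) and inside Rbbp6 (63.0) came next. A region inside Tgfbr2, which encodes a receptor of transforming growth factor beta, had 57.7 (chr9:116163990-116164162). Inside Ptk2b, which encodes the tyrosine kinase PYK2, the value was 54.1. Of the 137, 124 had a peak in antigen-experienced cells and 10 in effector cells. Of all 6407 isolated naive regions, 2016 and 760 did. Over all naive regions, weak ones included, the shares were 76.8% and 56.3%.

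Regions at genes of effector function included many gains. Of 100 tested regions at 28 of 29 effector genes, 36 were at least 2-fold more open and 1 at least 2-fold less open, against 9.41% and 2.5% of all tested regions. Their median difference stood 0.60 above that of all tested regions (range over the 8 libraries 0.56 to 0.64), and 0.57 after cyclic loess. A peak in all 8 day 9 libraries and none in naive was seen in a further 20 of the 120 effector regions present in all 8, against 10.4% of all such regions.

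Chemokine genes led this list. At Ccl4, which encodes an inflammatory chemokine (chr11:83662287-83662582), naive had 7.60 and day 9 had 34.4, 40.2 and 54.1 (2.55, SE 0.15, adjusted p = 2.93e-14). All tested regions of Ccl3 (2), Ccl4 (1), Ccl5 (3) and Cxcr3 (2) were at least 2-fold more open. The Ccl5 region with the largest gain went from 11.6 to 32.3, 37.8 and 52.0 (1.93, SE 0.15). That of Cxcr3, a receptor for interferon-induced chemokines, went from 6.13 to 20.5, 24.1 and 32.9 (2.11, SE 0.18). The Ccl3 promoter (region chr11:83649387-83649775) had a peak of 17.1 to 32.4 in the day 9 libraries and none in naive.

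Ifng, the gene of interferon gamma, had 14 tested regions, of which 11 were called more open and 9 at least 2-fold. In its strongest change (chr10:118404543-118404834, 36212 bp away) naive had 3.33 and day 9 had 13.8, 16.3 and 22.2 (2.29, SE 0.20, adjusted p = 1.28e-10). Gzmb, which encodes granzyme B, had 4 of 7 regions at least 2-fold more open, and inside the gene the value went from 16.1 to 42.2, 54.6 and 67.3 (1.94, SE 0.14). Id2, a regulator of effector differentiation, had 3 of 5, and a region 94331 bp away went from 5.86 to 17.2, 30.7 and 41.0 (2.37, SE 0.22).

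Other effector genes did not follow. Both regions of Prf1, the perforin gene, were called less open (-0.60 and -0.40), and their differences after cyclic loess were -0.29 and -0.08. The Tnf region had 87.3 in naive and 34.3, 41.4 and 48.3 at day 9 (-0.81, SE 0.14, and -0.50 after cyclic loess). Both regions of Tbx21, the gene of T-bet, missed the threshold, with differences of -0.05 (SE 0.31) and 0.02 (SE 0.18). Il12rb2 held the only 2-fold less open region of the list (-1.03, SE 0.22) besides 2 that were 2-fold more open.

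Regions at genes of naive and memory T cells went mostly the other way. Of 168 tested regions at 24 genes, 24 were at least 2-fold less open and 7 at least 2-fold more open, and 93 were called less open in all. Of all tested regions, 2.5%, 9.41% and 30.7% did so. The median difference stood 0.33 below that of all tested regions (range over the 8 libraries -0.37 to -0.24), and 0.30 below after cyclic loess. A peak in naive and in none of the 8 was seen in 97 of the 370 naive regions of the list, against 14.3% of all naive regions, and 77 of these had no day 9 peak within 500 bp.

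Satb1, a chromatin organizer of naive T cells, had 10 of 11 regions called less open and 4 at least 2-fold. In its strongest change (chr17:51903952-51904267) naive had 54.5 and day 9 had 10.8, 14.0 and 19.2 (-1.64, SE 0.19, adjusted p = 5.17e-08). All 7 tested regions of Ccr7, the lymph node homing receptor gene, were called less open, 3 of them at least 2-fold. Ccr7 also had 2 isolated day 9 regions with no naive peak and 1 isolated naive region with no day 9 peak. The Ccr7 region with the largest loss had 64.4 in naive and 17.0, 23.3 and 25.6 at day 9 (-1.29, SE 0.19, adjusted p = 3.19e-06). Lef1, which encodes a relative of TCF-1, had 6 of 10 called less open, and inside the gene the value went from 72.2 to 13.9, 20.9 and 22.9 (-1.56, SE 0.19). Klf2, a quiescence factor gene, had 2 of 5 at least 2-fold less open, and the region with the largest loss went from 33.3 to 7.42, 8.96 and 13 (-1.44, SE 0.23).

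Long genes of this list held changes in both directions. Foxp1, a quiescence factor gene, had 11 of 23 regions called less open and 15 naive regions with no day 9 peak. Inside it, 1 region fell from 86.7 to 11.3, 21.7 and 26.7 (-1.81, SE 0.33, and -4.22 with the percent of tags in peaks as a covariate) and another rose from 14.3 to 29.8, 33.6 and 41.2 (1.46, SE 0.15). Bach2, a repressor gene, had 14 of 23 called less open, 3 called more open and 13 naive regions with no day 9 peak. Its strongest gain (chr4:32179784-32180010) went from 3.46 to 13.6, 16.8 and 25.6 (2.32, SE 0.22). Bcl2, the survival gene, differed from the list, with 5 of 8 regions called more open and 3 at least 2-fold. Inside it, 1 region went from 34 to 52.2, 72.6 and 80.0 (1.28, SE 0.15), while 9 isolated naive regions with no day 9 peak had it as nearest gene.

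Tcf7 and Cd44, whose products or reporter defined the sorts, differed from each other in direction. All 4 tested regions of Tcf7 were called less open, with differences of -0.72 to -0.47. After cyclic loess they were -0.32 to -0.02, and only the region at chr11:52314130-52314543 kept an adjusted p under 0.05 (0.035). There naive had 108.6 and day 9 had 41.7, 54.5 and 62.2. Cd44 had 6 tested regions. Of these, 1 was at least 2-fold more open (chr2:102812786-102813075), with 3.46 in naive and 19.4, 28.3 and 33.4 at day 9 (2.94, SE 0.19, adjusted p = 2.04e-13). The antigen-experienced library, sorted as CD44+, had 37.3 there. Another Cd44 region was called with 0.72 (SE 0.20), and without centring it had 0.46 and was not, and the other 4 missed the threshold.

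**Figure D4:**
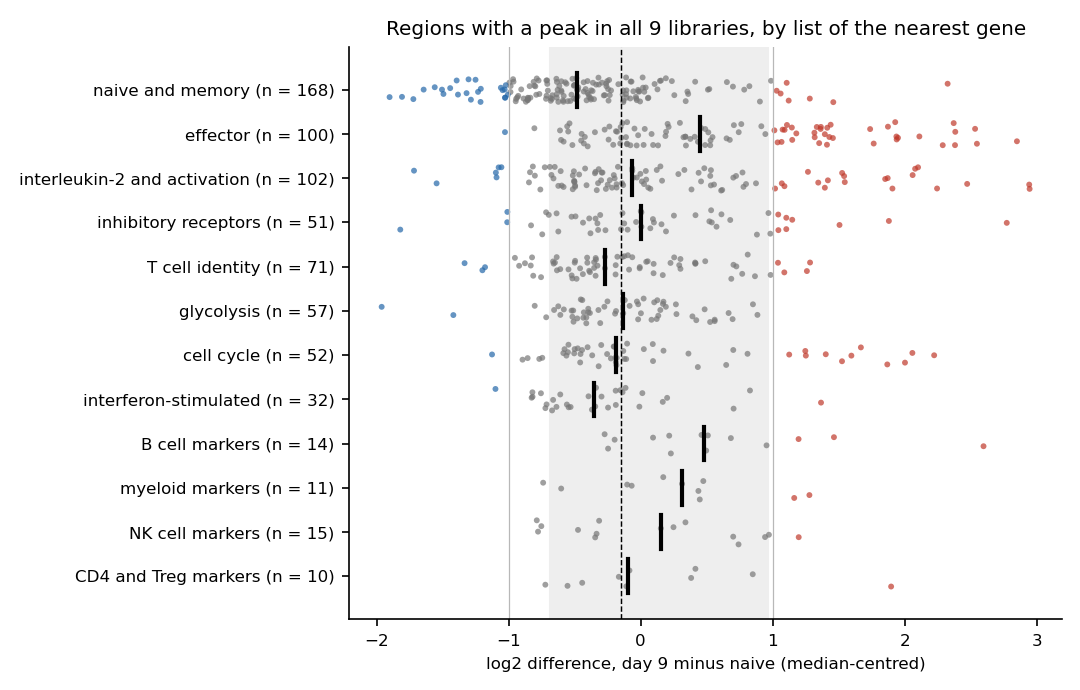
Log2 difference between day 9 and naive (x axis) of each tested region, by list of its nearest gene. Points are regions (red at 1 or above, blue at -1 or below), black bars are list medians, and the dashed line and grey band are the median and the 10th to 90th percentile of all 30804 tested regions; the effector median lies at 0.45 and that of naive and memory genes at -0.49.

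Genes of activation and of the interleukin-2 response held changes in both directions. Of 102 tested regions, 20 were at least 2-fold more open and 6 at least 2-fold less open, against 9.41% and 2.5% of all tested regions, with a median 0.09 above that of all tested regions. That sign turned (to -0.07) when only genes within 10 kb were counted. All 3 tested regions of Bhlhe40, a factor gene of activated T cells, were at least 2-fold more open, and 1 went from 3.46 in naive to 23.7, 26.8 and 35.4 (2.95, SE 0.17, adjusted p = 2.16e-14). Irf8 had 4 of 8 at least 2-fold more open, and the largest gain went from 4.93 to 21.9, 26.6 and 35.1 (2.47, SE 0.17). Socs2 and Cish, feedback inhibitors of cytokine signalling, each had 2 at least 2-fold more open. Il2ra, the gene of the interleukin-2 receptor alpha chain, had 2 regions with a peak in all 8 day 9 libraries and none in naive, at 31.2 to 47.3 and 29.9 to 40.6. Icos, a costimulator gene, had 3 of 9 regions called more open, 3 isolated day 9 regions, 2 isolated naive regions and 1 region called less open (41.0 in naive and 6.66, 9.96 and 11.5 at day 9, -1.72, SE 0.24). Cd28, another costimulator gene, had 2 of 7 at least 2-fold less open besides 1 at least 2-fold more open. A region at Egr3 was less open (-1.55, SE 0.19).

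Genes of inhibitory receptors and exhaustion factors had 8 of 51 regions at least 2-fold more open and 3 at least 2-fold less open, against 9.41% and 2.5% of all tested regions. Near Ctla4 (chr1:60875284-60875551) naive had 4.53 and day 9 had 24.7, 30.4 and 37.5 (2.77, SE 0.17, adjusted p = 4.88e-14). Tox2 had 3 of 4 regions at least 2-fold more open (up to 1.88, SE 0.19) and Entpd1, the gene of CD39, 3 of 9 (up to 1.51, SE 0.18). Tox, a factor gene of exhausted T cells, went the other way in 2 of 10, and inside it 1 region fell from 65.6 to 12.2, 14.9 and 17.3 (-1.82, SE 0.24, and -3.09 with that covariate). Pdcd1, the gene of PD-1, had 2 of 3 regions called less open, 1 isolated day 9 peak of 8.75 to 12.3 and 1 isolated naive region.

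Of the defining genes of CD8 T cells, Cd3d, Cd3e, Cd8a, Cd8b1 and Cd247 had a region with a peak in all 9 libraries. No region with Cd3g as nearest gene did. The 3 tested regions of Cd247 had differences from -0.83 to 0.29, and 5 isolated naive regions lay at this gene. The region with the largest loss at Cd8a had 89.9 in naive and 25.5, 32.1 and 37.9 at day 9 (-1.20, SE 0.14), and that at Cd8b1 had 44.4 and then 9.75, 14.8 and 18.2 (-1.33, SE 0.23, and -2.12 with that covariate). At Cd3d naive had 123.7 and day 9 had 59.5, 72.2 and 93.7 (-0.49, SE 0.13), and -0.005 after cyclic loess. The 3 tested regions of Cd3e missed the threshold. Over the 71 tested regions of T cell identity genes, 4 were at least 2-fold more open and 3 at least 2-fold less open, against 9.41% and 2.5% of all tested regions, and the sign of the list's median against all tested regions turned under cyclic loess (-0.12 to 0.005). A peak in naive and in none of the 8 was seen in 50 of the 199 naive regions of this list, against 14.3% of all naive regions, 9 of the isolated ones at Ets1 and 7 at Bcl11b.

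Among the 52 regions of cell cycle genes, 15 were called more open and 15 less open, against 20.4% and 30.7% of all tested regions. At least 2-fold more open were 11 (9.41% of all tested), and these were at Cdk6 (8 of its 10 tested regions) and Rb1 (3 of 7). Inside Cdk6, the kinase gene of early G1 phase (chr5:3501778-3501997), naive had 6.53 and day 9 had 21.8, 29.1 and 36.1 (2.22, SE 0.17, adjusted p = 6.27e-12). Called less open were 4 of 5 regions of Ccnd3 and 4 of 6 of Ccne1, both cyclin genes, and both of Mcm5, a replication helicase gene. The Mcm5 differences were -0.55 and -0.46, and after cyclic loess only -0.12 and -0.29. A region of Ccnd2, another cyclin gene, was at least 2-fold less open (-1.13, but -0.68 against high_to_high replicate 2 alone and -2.22 with the covariate). The single Mki67 region did not pass, with -0.18 (SE 0.14). Glycolysis genes had 8 of 57 regions called more open, the largest 0.88 at Pfkp, and 19 called less open, against 20.4% and 30.7% of all tested regions. Of those, 2 at Slc16a1, a lactate transporter gene, were at least 2-fold (-1.96 and -1.42, the latter -3.15 with the covariate). Interferon-stimulated genes had 18 of 32 called less open and 3 called more open, against 30.7% and 20.4% of all tested regions. After cyclic loess the median of this list stood 0.12 below that of all tested regions, against 0.20 below with median centring.

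Markers of other cells that a spleen culture could hold were checked the same way. In bulk samples, fewer cells of a type and less signal per cell cannot be told apart. Summed over the 14 tested regions of B cell markers the value was 147.6 in naive and 158.7 to 228.2 at day 9, with 7 called more open. Of these, 3 were at least 2-fold, at Blk (4 in naive and 19.0, 24.0 and 30.6 at day 9, 2.60, SE 0.19), Ebf1 and Cd22, and no peak of any library had Cd79a as nearest gene. Myeloid markers summed over 11 regions to 244.7 in naive and 188.8 to 276.3 at day 9, with 4 called more open (2 at Itgam at least 2-fold) and 2 called less open, and none had Csf1r. NK cell markers summed over 15 regions to 549.6 in naive and 318.0 to 468.8, with 5 called more open and 6 less open. CD4 and regulatory T cell markers summed over 10 regions to 223.6 and 163.9 to 201.4, with 2 called in each direction, and Foxp3 had no region with a peak in all 9 libraries. The only tested erythroid region, at Klf1, had 51.0 in naive and 34.7 to 58.0 at day 9. These sums are of values before centring, and strong regions weigh most in them. On the centred scale the list medians stood above that of all tested regions, by 0.63 (B cell), 0.47 (myeloid), 0.30 (NK) and 0.06 (CD4). After cyclic loess they stood at 0.42, 0.35, 0.17 and -0.08 from it, in that order. The part of such cells in the results was not tested.

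Counted over all genes, Ifng and Atxn1 had the most regions called more open, with 11 of 14 each. Prkce, which encodes protein kinase C epsilon, had 10 of 19. Cdk6 had 9 of 10, Arhgap26 had 9 of 16 and Mef2a, a factor gene, had 9 of 13. Inside Mef2a the largest gain went from 4.80 to 22.1, 31.2 and 39.6 (2.66, SE 0.21, adjusted p = 1.03e-11). Regions called less open together with naive regions that had no day 9 peak were most frequent at Bach2 (27) and Foxp1 (26). Akap13 (20), Zfhx3 (20), Prkcq (18) and Sgms1 (18) came next. Prkcq encodes protein kinase C theta of the T cell receptor pathway. It had 12 of 20 regions called less open, and the largest loss went from 69.6 to 14.8, 19.9 and 24.1 (-1.50, SE 0.17, adjusted p = 2.86e-08). The counts are not adjusted for gene length.

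Promoters under changed regions were searched for short motifs on both strands, over 250 bases before to 50 after the start. The AP-1 motif TGANTCA was in 11.7% of the 162 promoters under 2-fold more open regions, in 4.61% of the 7247 under any tested region and in 7.85% of all 32619. The RUNX motif TGTGGTT was in 11.7%, 3.92% and 5.29%, in that order, the ETS motif ACAGGAAG in 8.64%, 4.04% and 3.60%, and the STAT motif TTCNNNGAA in 12.3%, 7% and 8.34%. The KLF motif GGGCGTGG was in 8.64%, 11.2% and 5.36%. Under the 65 promoters of 2-fold less open regions, AP-1 and RUNX matches stood at 6.15% each, and ETS and TCF/LEF at 3.08% each. Base composition differed between these sets. Tested promoters had a median of 61.0% G and C with 21 CG pairs in the 300 bases, those under 2-fold more open regions 56.0% and 13, and those under 2-fold less open regions 56.7% and 11. A match is a stretch of letters and not a bound site, and its part in the changes was not tested.

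The 3 day 9 groups overlapped in their distance from naive. The Jaccard index with naive (shared regions over all regions of both) was 0.571 to 0.618 over the 8 libraries. It averaged 0.596 ± 0.0178 (SD, n = 5) in YFP-high and 0.590 ± 0.0181 (SD, n = 3) in YFP-low libraries, with a two-sided exact permutation p of 0.589 (56 splits). The share of naive regions kept was 70.6% ± 5.29 (SD, n = 5) and 70.9% ± 3.61 (SD, n = 3), with an exact permutation p of 0.946. Over the 8 libraries this share rose with depth, from 66.0% at 20.8 M tags to 79.5% at 60.0 M. The part of depth in these measures was not tested. Mean depth was 35.0 M tags in YFP-high and 35.3 M in YFP-low libraries. The mean difference over called regions was 1.09 and 1.07 for the more open (exact permutation p = 0.464) and -0.65 and -0.67 for the less open (p = 0.25, exact). Adjusted over these 4 measures, the exact permutation p-values were 0.786 to 0.946. These p-values do not show that the groups are alike.

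Over the 2-fold less open regions the mean difference was -1.25 ± 0.0715 (SD, n = 5) in YFP-high and -1.41 ± 0.117 (SD, n = 3) in YFP-low libraries, an added comparison with an exact permutation p of 0.0714. The splits of this and the other permutation tests ignored replicate number, although same-numbered low_to_high and low_to_low libraries deviated together. The share of tags in peaks also differed between these libraries, 9.57% against 11.2% (exact permutation p = 0.0179), and its part was not tested. In a limma fit of the 3 groups, 202 tested regions (0.656%) were higher in high_to_high than in low_to_low and 11 (0.0357%) lower. Among the 770 regions 2-fold less open than naive, 49 (6.36%) passed, all of them higher in high_to_high, so nearer to naive. Among the 2899 that were 2-fold more open, 26 (0.897%) were higher and 3 lower. Between low_to_high and low_to_low 13 regions (0.0422%) were higher in low_to_high, 5 of them among the 770. With replicate number as a block, which pairs these 2 groups, the counts were 56 and 19. Between high_to_high and low_to_high limma called 0 regions, and 1638 had an unadjusted p under 0.05 (5.32% of those tested).

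**Figure D5:**
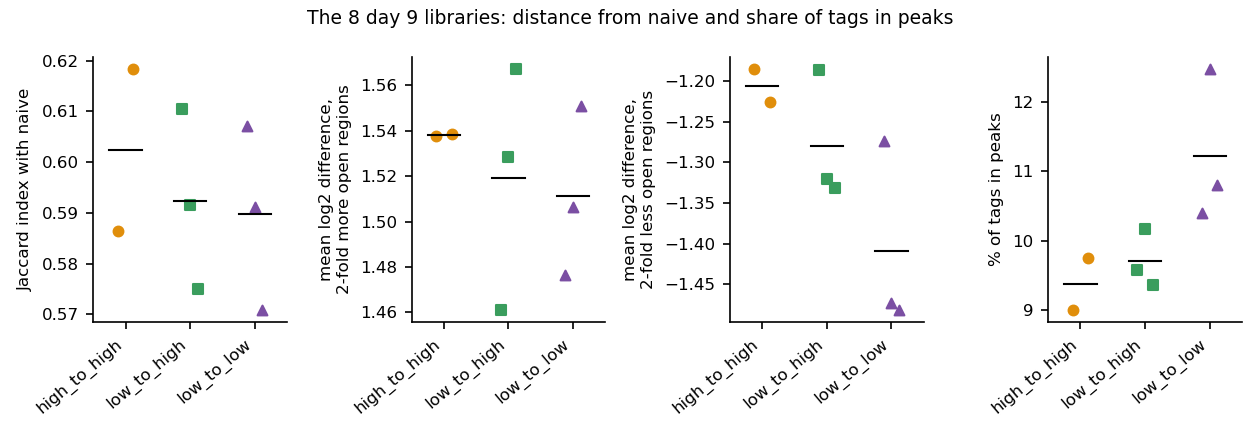
Values of the 8 day 9 libraries by group (points) with group means (bars): the Jaccard index with naive, the mean log2 difference from naive over 2-fold more open and over 2-fold less open regions, and the percent of tags in peaks. The y axes do not start at 0; the Jaccard index runs from 0.571 to 0.618 with the groups overlapping, and tags in peaks are highest in low_to_low, up to 12.5%.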

How the data were processed

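ATAC-seq peak lists of 1 naive and 8 day 9 libraries were analysed, each called on its own library without a control. Per the file headers, the authors ran HOMER 4.10 findPeaks with an FDR threshold of 0.001, a local fold of 4 over 10 kb and a Poisson p-value limit of 1e-04 against that local region. The submitters' processing notes also name Bowtie2, DESeq2 and mm10, without roles. The signal of a peak is the authors' normalized tag count, scaled to 10000000 tags, per the file headers. The deposited fold over the local signal, a ratio, served to describe peaks and as an alternative threshold. The deposited p-value and score columns entered no result. The weakest peak of these lists rested on 9.00 to 13.5 tags. Peak windows were 132 bp in naive, 136 bp in high_to_high replicate 2 and 173 bp in the other 7.

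Peaks on chromosomes 1 to 19 and X were merged (checked with bedtools 2.31.1), and at most 0.104% of a list was left out. Regions took the protein-coding gene with the nearest RefSeq span within 100 kb, found for 94.4%. Tests used limma 3.58.1 in R 4.3.3 (functions lmFit and eBayes, trend on) applied to log2(value + 1), naive against the 8 day 9 libraries as 1 group. The spread comes from the day 9 libraries, so the naive library is assumed to vary like them. The fit was tested on simulated data. Fold changes on this scale understate changes of low values.

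Named regions are the 12 with the largest called difference in each direction with naive outside the range of the 8, the 10 strongest with peaks in 1 group only, the 6 genes with the most changed regions in each direction, up to 4 regions a direction for each of 13 gene lists, and those of genes behind the sorts, such as Tcf7 and Cd44. A few of the regions this rule picks are not reported here. The comparison, members and lists were chosen with earlier results of these data known. For 212 of 213 list genes an entry was found. The 2-fold class, the 500 bp and 8-fold limits on regions with peaks in 1 group only and the promoters shown were chosen after seeing the data. Same-numbered low_to_high and low_to_low libraries deviated together (correlations over regions 0.117 to 0.244), those of high_to_high did not (-0.043 to -0.0016). No genome sequence was used here, so motifs were searched in RefSeq promoters only. Regions within 0.05 of the range limit numbered 623 just outside and 644 just inside with naive below, and 1044 and 1047 with naive above.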

Additional observations from a re-analysis of the deposited data

Results flagged for a closer look

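Of the 24 regions with the largest change, 3 differed between day 9 groups by the limma fit of the 3 groups. All 3 were less open than naive, and all were higher in high_to_high than in low_to_low, by 1.33 at Fndc7 (adjusted p = 0.000305), 0.994 at Kif1b (adjusted p = 0.00911) and 1.06 at Syde1 (adjusted p = 0.00287) on the log2 scale. At Fndc7 the 2 high_to_high libraries had the highest values of the 8. The cause was not tested. In none of the 24 did a single day 9 library stand apart from the other 7 by Dixon's rule, which flags about 1 in 20 groups by chance.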

How the results depend on the processing

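The counts of changed regions depended on the settings more than on any single day 9 library. With only regions of a mean value of at least 20, 3380 were called more open and 2769 less open, 1360 and 97 of them at least 2-fold. Without centring, 3758 were called more open, 1809 and 2412 were at least 2-fold more and less open, and naive lay below all 8 in 5243. Cyclic loess gave 5076 less open. With each library's percent of tags in peaks as a covariate the calls were 3082 and 3656, with 1979 at least 2-fold less open. With peaks of at least 8-fold over the local signal they were 3258 and 4753, at 2-fold 1627 and 203, and day 9 alone had 1403 regions. A pseudocount of 5 gave 1632 and 438 at 2-fold. Of the regions with peaks in 1 group only, 544 (day 9) and 1186 (naive) had a value of at least 20. The mean-value filter, the 8-fold limit and the limit of 20 keep fewer peaks or regions. Leaving out centring shifts all differences by -0.26, and a larger pseudocount makes log2 differences smaller, most at low values. For the other settings the cause was not tested.

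Leaving out each day 9 library in turn gave 6137 to 6362 more open and 9155 to 9613 less open calls, 2869 to 2950 and 725 to 803 at 2-fold. It also gave 8573 to 8836 regions with naive below and 13556 to 13798 with naive above, and 3619 to 3992 day 9 and 8322 to 9713 naive regions in 1 group only. The single naive library cannot be left out. With the replicate block, where naive counts as number 1, 5772 were called more open and 8475 less open, 2796 and 678 at 2-fold. The 24 regions with the largest change kept call and direction in every setting of the fit that gave them a value and a test, but the filter gave none to 10 of the losses, the 8-fold limit none to 9 losses and 2 gains, and the 50 bp overlap none to 1 gain. In the fit of the 8 day 9 libraries with the block, 258 regions were higher and 26 lower in high_to_high than in low_to_low (52 higher of the 770, 44 higher and 3 lower of the 2899), and 2 were higher in high_to_high than in low_to_high. Of 150 regions followed singly, 34 lost the call in at least 1 setting, 30 of them with the covariate, 11 with cyclic loess, 11 with the filter and 8 without centring. The size of 47, all with a difference over 0.5, moved by over 1.5 times in some setting, 30 of them with the covariate.

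The difference in Jaccard index between YFP-high and YFP-low libraries ran from -0.00272 (without low_to_low replicate 3) to 0.0153, and that in naive regions kept from -2.53 to 1.19 percentage points. The latter turned to 0.388, 0.144, 0.854, 0.241 and 1.19 without high_to_high replicate 1, low_to_high 2 and 3 and low_to_low 1 and 2, and to 0.645 with the 40000 strongest peaks.

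List medians minus that of all tested regions moved as follows. With the filter they were -0.174 (naive and memory), 0.651 (effector), 0.0777 (T cell identity), 0.118 (cell cycle), -0.0866 (interferon), 1.86 (B cell) and -0.101 (NK). After cyclic loess they were 0.00451 (T cell identity), 0.0299 (cell cycle), -0.118 (interferon), 0.418 (B cell), 0.351 (myeloid) and -0.0805 (CD4). With genes within 10 kb they were 0.525 (effector), -0.0654 (activation), -0.157 (T cell identity), 0.0606 (cell cycle) and 0.704 (NK). A pseudocount of 5 gave 0.501 (effector), -0.0816 (T cell identity) and 0.510 (B cell). The replicate block gave -0.268 (naive and memory) and -0.0476 (T cell identity), and the covariate -0.0259 (T cell identity) and -0.150 (CD4). High_to_high replicate 2 alone, whose peak windows are closest to those of naive, gave -0.0447 (T cell identity), -0.0627 (cell cycle) and 0.485 (B cell). Leaving out 1 library gave -0.129 to -0.0764 (T cell identity) and -0.0382 to -0.00107 (cell cycle).

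Of single regions, the Cd3e region at 45014940, not called, turned to 0.0104 (pseudocount 5), 0.00758 (replicate block), 0.221 (covariate), 0.00258 (sum of peaks), 0.000898 (50 bp overlap) and, without 1 library, to 0.0098, 0.0293 and 0.00584 in a range of -0.0437 to 0.0293. The Cd247 region at 165790000, not called, turned to -0.0292 with the covariate. Where a peak is weak (9.00 to 13.5 tags in the weakest), a missing peak is no sign of closed chromatin.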

Other observations

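Beyond the lists, at least 2-fold more open regions gathered at genes that no list names. Cables1, which encodes a protein that links kinases of the cell cycle, had all 6 tested regions called more open and 5 at least 2-fold, with a median difference of 1.74. Mgll, the gene of monoglyceride lipase, had 5 of 6 at least 2-fold with a median of 1.33, and Col15a1, a collagen gene, had 5 of 8 with a median of 1.18. Nabp1, which encodes a single-stranded DNA-binding protein, had 8 of 11 called more open.

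Isolated naive regions with no day 9 peak gathered at Zfand3 (15), Zfhx3 (15), Akap13 (14) and Nrip1 (13). Itpr2, Med13l, Bach2 and Sgms1 had 12 each. Most of the tested regions of these genes did not reach a 2-fold change. At Akap13 as many tested regions were called more open (5) as less open (5).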
